A study of Caenorhabditis elegans with 4 samples.

Results

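The arsenite response of the Caenorhabditis elegans strain VZ1 was read from the 106 genes or loci that the authors' table of stressed against unstressed VZ1 lists, out of 393 entries in the 4 tables of the series. Whole young adult animals grown on OP50 bacteria were exposed to 10 mM sodium arsenite (NaAs) for 5 h, or left on the same food without arsenite. RNA-seq was made from 1 library of stressed VZ1 and 1 library of unstressed VZ1, and likewise from 1 library of stressed and 1 of unstressed N2, the reference wild type. A deletion of trx-1 is known in VZ1. The gene encodes a thioredoxin found in the ASJ sensory neurons, so that both VZ1 groups lack this gene and differ from each other by arsenite alone, as far as the labels say. The table names neither trx-1 nor skn-1, so it holds no level that could check the strain. With 1 library a group there is no spread between replicates, and every statement that a gene rose or fell means that the authors' test called it between these libraries, not that the conditions were shown to differ. The samples are whole animals, in which a change in the number of cells of a type and a change of RNA per cell cannot be told apart.

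Arsenite binds sulfhydryl groups of proteins and of glutathione, the main small thiol of the cell, and raises oxidative stress. In worms such stress brings the transcription factor SKN-1 into the nuclei of intestinal cells, where it drives genes that make glutathione and enzymes that join it to toxic compounds. Thioredoxins are small proteins that reduce disulfide bonds. The series' title concerns control of the nuclear localization of SKN-1 by TRX-1 from other cells.

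Arsenite raised far more of the listed genes than it lowered in VZ1. Of 14420 genes that the authors tested, 88 were higher in stressed VZ1 (0.610% of those tested) and 18 were lower (0.125%), 106 in all (0.735%). The level of each is an FPKM value, a fragment count divided by exon length and by the total of mapped fragments. A library listed at an FPKM of 0 allows no fold change, and 19 such entries are described apart, 11 of them at loci wider than 50 kb. The other 87 entries hold 76 that rose, by 5.63-fold to 252.7-fold with a median of 14.3-fold (log2 3.84), and 11 that fell, by 6.19-fold to 50.3-fold with a median of 9.69-fold (log2 −3.28). Of the 76 that rose, 50 rose by more than 10-fold and 14 by more than 50-fold. The table thus holds no fold below these limits, and the genes left out of it may have changed by less.

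The rises brought genes of low level to the top of the listed range. The 76 genes that rose stood at 20.5 to 8744 FPKM with a median of 250.4 FPKM in stressed VZ1, against 0.56 to 264.4 FPKM with a median of 11.3 FPKM in unstressed VZ1. Above 1000 FPKM were 13 of them in stressed VZ1, against none in unstressed VZ1. The 11 genes that fell stood at 1.27 to 209 FPKM in stressed VZ1, against 12.2 to 2595 FPKM in unstressed VZ1.

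**Figure D1:**
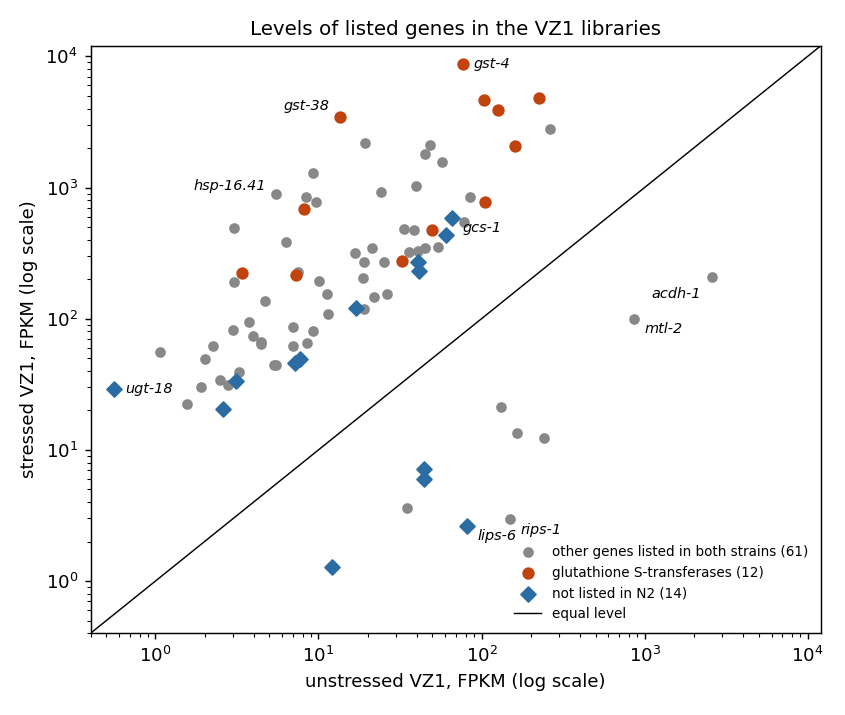
FPKM in stressed VZ1 (vertical, log scale) against FPKM in unstressed VZ1 (horizontal, log scale) for the 87 listed genes with a value above 0 in both libraries, 1 point a gene and 1 library a group. The 12 glutathione S-transferase genes (orange) all lie above the line of equal level, and 4 of the 14 genes not listed in N2 (blue diamonds) lie below it.

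Glutathione S-transferases, enzymes that conjugate toxic electrophiles with glutathione, were the gene family with the most listed members. Of 49 annotated members 12 were listed (24.5%, against 0.735% of all genes tested), and all 12 rose, by a median log2 of 4.93. Here and below, the share of a list is of its annotated genes, and how many of those were tested is unknown. The lists were chosen with earlier results of these data known. gst-4 (chromosome IV, 10142210 to 10142978 in build ce10, as all positions here), a standard reporter gene of SKN-1 activity, stood at 8744 FPKM in stressed VZ1, against 76.8 FPKM in unstressed VZ1. gst-38 (chromosome V, 15915223 to 15915910) had the largest rise in the table, with 3439.5 FPKM in stressed VZ1, against 13.6 FPKM in unstressed VZ1 (log2 7.98). In both genes the stressed library was higher by more than 100-fold.

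The members differed more in the size of the rise than in its direction. Those that stood lowest without stress were gst-16 (222.6 FPKM in stressed VZ1 and 3.41 FPKM in unstressed VZ1), gst-35 (216 and 7.23 FPKM in the same order) and gst-12 (689.7 and 8.19 FPKM), with log2 folds of 6.03, 4.90 and 6.40. Those that stood highest without stress were gst-1 (4788 FPKM in stressed VZ1 and 224.5 FPKM in unstressed VZ1), gst-13 (2063 and 160.03 FPKM) and gst-7 (3931 and 126.3 FPKM), with log2 folds of 4.41, 3.69 and 4.96. The locus of gst-1 also covers cls-2, a gene of a microtubule-binding CLASP protein, and that of gst-5 (4669 FPKM in stressed VZ1 and 102.9 FPKM in unstressed VZ1) covers gskl-1, so each of these values belongs to both genes of its locus. The smallest rises were those of gst-39 (276 FPKM in stressed VZ1 and 32.7 FPKM in unstressed VZ1), gst-20 (477 and 49.4 FPKM) and gst-6 (779 and 105.6 FPKM), at log2 3.08, 3.27 and 2.88. Reads that close paralogs share can be divided between them by the authors' assignment, so single members of the family are uncertain.

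Summed over the 12 loci, the level was 30295 FPKM in stressed VZ1, against 911 FPKM in unstressed VZ1. The 12 loci held 53.3% of the summed FPKM of the 76 rising genes in stressed VZ1, against 37.9% in unstressed VZ1. All 12 are also listed for stress in N2, where their median log2 fold was 5.15. N2 lists gst-30 (1238 FPKM in stressed N2 and 1.10 FPKM in unstressed N2) and gst-14 (40.6 and 2.01 FPKM) besides, which the VZ1 table does not list and for which it gives no level. Both unstressed levels are low, so the size of these folds is uncertain. Neither gene is shown to respond differently in VZ1.

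Both subunits of the enzyme that starts glutathione synthesis rose. gcs-1 (chromosome II, 9035475 to 9038220), the catalytic subunit of glutamate-cysteine ligase and a classic SKN-1 target, stood at 590.4 FPKM in stressed VZ1, against 66.02 FPKM in unstressed VZ1 (log2 3.16). gclm-1 (chromosome I, 4139558 to 4142271, listed as E01A2.1), the counterpart of the modifier subunit known from mammals, stood at 433 FPKM in stressed VZ1, against 60.8 FPKM in unstressed VZ1 (log2 2.83). The subunit genes were close in level to each other in both libraries. Neither is listed for stress in N2. cbl-1, a cystathionine beta-lyase gene of sulfur amino acid metabolism, had 349 FPKM in stressed VZ1 and 54.1 FPKM in unstressed VZ1, with a log2 fold of 2.69, against 2.48 in N2. Of the 23 annotated genes in a list of glutathione and sulfur amino acid metabolism only gcs-1 was listed (4.35%, against 0.735% of all genes tested). gclm-1 and cbl-1 are outside that list and were picked out after their values were seen.

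Other detoxification enzymes rose in small numbers. Of 67 UDP-glucuronosyltransferase genes, whose enzymes attach sugar acids to lipophilic compounds, 2 were listed (2.99%, against 0.735% of all genes tested). ugt-18 had 29.01 FPKM in stressed VZ1 and 0.56 FPKM in unstressed VZ1, the lowest unstressed level of any rising gene with a value above 0, and ugt-13 had 146 and 21.9 FPKM. Of 52 dehydrogenase and other oxidoreductase genes 2 were listed (3.85%, against the same 0.735%). The short-chain dehydrogenase gene dhs-8 had 94.3 FPKM in stressed VZ1 and 3.73 FPKM in unstressed VZ1. The flavin-containing monooxygenase gene fmo-2 had 20.5 FPKM in stressed VZ1, the lowest stressed level of the 76, and 2.58 FPKM in unstressed VZ1. Outside the lists, comt-3, of the catechol-O-methyltransferase family, rose by log2 3.85 (481 FPKM in stressed VZ1 and 33.4 FPKM in unstressed VZ1). dhsl-4 (30.2 and 1.90 FPKM) and nxnr-1 (843 and 8.41 FPKM, log2 6.65, listed as Y52E8A.3) rose too. No member was listed of 80 cytochrome P450 genes or of 32 redox enzyme genes. The redox list goes by gene symbol. It takes in superoxide dismutases, catalases, peroxiredoxins, thioredoxins and glutaredoxins, and leaves out nxnr-1. With 0.735% of all genes tested listed, lists of these sizes can readily hold no listed member. Their emptiness does not set these genes apart from others.

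Among small heat shock proteins, chaperones that bind unfolding proteins, hsp-16.41 and hsp-16.2 rose strongly. hsp-16.41 (chromosome V, 1805270 to 1805760) stood at 898 FPKM in stressed VZ1, against 5.52 FPKM in unstressed VZ1 (log2 7.35). hsp-16.2 (chromosome V, 1804440 to 1804924) stood at 769 FPKM in stressed VZ1, against 9.65 FPKM in unstressed VZ1 (log2 6.32). They are 2 of 16 annotated members (12.5%, against 0.735% of all genes tested). In N2 their log2 folds were 6.26 and 5.89, both smaller than in VZ1, a difference that was not tested. No member was listed of 39 genes for HSP70, HSP90 and their partners, the other large chaperone families. At 0.735% of all genes tested, a list of this size can readily hold none.

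A pair of genes of selective autophagy, the removal of tagged cargo by membrane engulfment, rose by less. sqst-1 (chromosome IV, 12034252 to 12036691, listed as T12G3.1), the worm's p62, a receptor for ubiquitin-tagged proteins, had 269.8 FPKM in stressed VZ1 and 40.8 FPKM in unstressed VZ1 (log2 2.72). allo-1 (chromosome IV, 10695406 to 10697040, listed as R102.5), an adaptor known for the clearance of paternal mitochondria in embryos, had 232 FPKM in stressed VZ1 and 41.2 FPKM in unstressed VZ1 (log2 2.49). The log2 fold of allo-1 is the smallest among the rising genes. Neither gene is listed for stress in N2, and allo-1 is in none of the lists used. Of 590 autophagy, F-box and ubiquitin-proteasome genes only sqst-1 and the F-box gene fbxa-72 were listed (0.339%, below the 0.735% of all genes). fbxa-72 fell, with 21.1 FPKM in stressed VZ1 and 132 FPKM in unstressed VZ1.

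Metal response genes went both ways. aip-1 (chromosome V, 14012556 to 14013418), an arsenite-inducible gene whose product associates with the proteasome, stood at 1033 FPKM in stressed VZ1, against 39.9 FPKM in unstressed VZ1. The cadmium-responsive gene cdr-4 had 547 FPKM in stressed VZ1 and 77.7 FPKM in unstressed VZ1. The metallothionein gene mtl-2 (chromosome V, 14018348 to 14018597), whose product binds metal ions through cysteines, fell to 100.04 FPKM in stressed VZ1, against 855 FPKM in unstressed VZ1 (log2 −3.10). These are 3 of 17 genes of the metal and arsenite list (17.6%, against 0.735% of all genes tested). The share is no test, since earlier results of these data were known when genes were chosen for that list. Outside it the ferritin gene ftn-1, an iron store, rose by log2 4.85 (135.6 FPKM in stressed VZ1 and 4.70 FPKM in unstressed VZ1). Its log2 fold in N2 was 3.87, and the unstressed level there was 8.30 FPKM.

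Among transporter genes, mrp-7, an ABC transporter of the multidrug resistance family, had 118.8 FPKM in stressed VZ1 and 18.9 FPKM in unstressed VZ1. pmp-5, an ABC transporter gene of the peroxisomal membrane protein family, fell to 12.2 FPKM in stressed VZ1, against 242 FPKM in unstressed VZ1 (log2 −4.31). They are the 2 listed of 57 ABC transporter genes (3.51%, against 0.735% of all genes tested). The sugar transporter gene swt-6 rose (80.1 FPKM in stressed VZ1 and 9.22 FPKM in unstressed VZ1), and so did catp-3 (49.4 and 7.74 FPKM), of the P-type cation pump family, which is not listed in N2.

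Further rises to high levels were those of an enzyme, a globin and a noncoding RNA gene. fah-1, the last enzyme of tyrosine breakdown, had 2771 FPKM in stressed VZ1 and 264.4 FPKM in unstressed VZ1, at a locus shared with the aspartyl protease gene asp-14. It was the only one of 11 amino acid breakdown genes listed (9.09%, against 0.735% of all genes tested), and its unstressed level was the highest of the 76 rising genes. The share is no test, since the list was chosen with earlier results of these data known. The globin gene glb-1 (chromosome III, 8922415 to 8923341) had 2121 FPKM in stressed VZ1 and 48.3 FPKM in unstressed VZ1, a log2 fold of 5.46. tts-1 (chromosome X, 1504126 to 1504837), a long noncoding RNA known from long-lived mutants, had 1809.6 FPKM in stressed VZ1 and 44.7 FPKM in unstressed VZ1, a log2 fold of 5.34. pycr-4, of the pyrroline-5-carboxylate reductase family of proline synthesis, had 473 FPKM in stressed VZ1 and 38.6 FPKM in unstressed VZ1. The acyltransferase gene oac-6 (44.2 and 5.33 FPKM), the secreted-protein gene scl-2 (329 and 40.8 FPKM), cnp-3 (65.6 and 8.55 FPKM), cup-16 (34.1 and 2.48 FPKM) and the locus of sri-36, sri-74 and F33H12.7 (269 and 25.2 FPKM) rose as well.

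**Figure D2:**
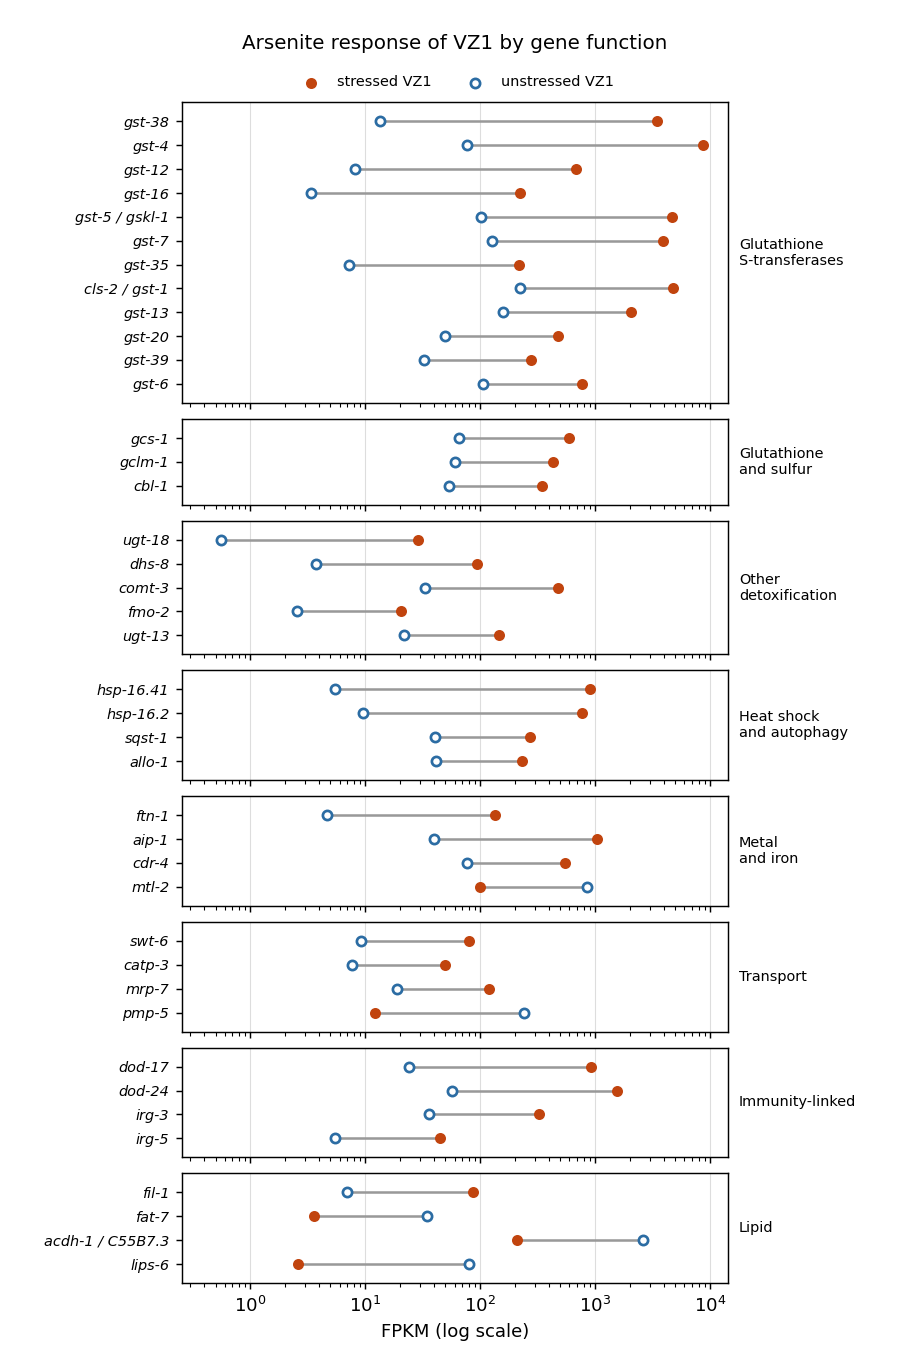
FPKM (log scale) in stressed VZ1 (filled orange) and unstressed VZ1 (open blue) for 40 listed genes, grouped by function, with 1 library a group and a grey line joining the values of a gene. The filled point lies to the right for 35 genes and to the left for mtl-2, pmp-5, fat-7, acdh-1 and lips-6, and the longest line is that of gst-38.

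The listed dod and irg genes, linked to immunity, all rose. dod-24, a CUB-domain gene used as a readout of pathogen and insulin signalling, had 1560.1 FPKM in stressed VZ1 and 57.3 FPKM in unstressed VZ1, and dod-17 had 931 and 24.2 FPKM. The infection response genes irg-3 (323 FPKM in stressed VZ1 and 35.8 FPKM in unstressed VZ1) and irg-5 (44.6 and 5.46 FPKM, listed as F35E12.5) rose by log2 3.18 and 3.03. Of 414 annotated members 7 entries were listed (1.69%, against 0.735% of all genes tested), 6 higher and 1 lower. The other 3 are catp-3, the fah-1 locus through asp-14, and hpo-25, listed at 0 in stressed VZ1, and these do not all act in immunity.

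Of the listed lipid genes 3 fell and 1 rose. acdh-1 (chromosome I, 6497342 to 6501434, a locus shared with C55B7.3), an acyl-CoA dehydrogenase gene known to follow the diet, stood at 209 FPKM in stressed VZ1, against 2595 FPKM in unstressed VZ1, the highest unstressed level in the table. The stearoyl-CoA desaturase gene fat-7, which makes oleic acid, had 3.60 FPKM in stressed VZ1 and 34.8 FPKM in unstressed VZ1. The lipase-related gene lips-6 (chromosome IV, 12014144 to 12015952) had 2.63 FPKM in stressed VZ1 and 81.01 FPKM in unstressed VZ1, a 30.8-fold fall (log2 −4.95). The lipase gene fil-1, induced by fasting, rose instead, with 86.04 FPKM in stressed VZ1 and 6.998 FPKM in unstressed VZ1. These 4 are 3.36% of the annotated members of the lipid list, against 0.735% of all genes tested, and no other was listed.

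lips-6 is the only 1 of the 106 entries that a strain table lists. That table gives 81.1 FPKM in unstressed VZ1, close to the 81.01 FPKM here although its locus starts 38 bp later, and 7.34 FPKM in unstressed N2. The level in stressed VZ1, 2.63 FPKM, is thus below that of unstressed N2, as far as levels from tables normalised separately can be set side by side. No level of lips-6 in stressed N2 is listed.

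The largest fall was that of rips-1 (chromosome V, 3772174 to 3774420, listed as R08E5.3), with 2.97 FPKM in stressed VZ1 and 149 FPKM in unstressed VZ1 (log2 −5.65). T13F3.6 fell 12.4-fold, with 13.4 FPKM in stressed VZ1 and 166 FPKM in unstressed VZ1. K08E7.5 (5.97 FPKM in stressed VZ1 and 44.2 FPKM in unstressed VZ1), the locus of F22E5.1 and F22E5.17 (7.15 and 44.2 FPKM) and Y22D7AL.11 (1.27 and 12.2 FPKM) complete the 11 genes that fell. Of the 7 falling genes listed in both strains, 6 had the larger fall in VZ1, with log2 folds of −5.65 in VZ1 and −5.08 in N2 for rips-1 and of −3.64 and −2.87 for acdh-1, whose locus is merged with uri-1 in the N2 table. The exception was pmp-5, at −4.31 in VZ1 and −4.59 in N2. The loci of fbxa-72 and pmp-5 also have other ends in N2 than in VZ1. None of these differences in fold between the strains was tested.

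Genes known by a sequence name alone make up 34 of the 87 entries, 30 higher and 4 lower. The 30 rose by log2 2.54 to 7.35 with a median of 3.88, against 3.65 for the 46 rising genes with a symbol. The largest rises were those of W06H8.2 (493 FPKM in stressed VZ1 and 3.03 FPKM in unstressed VZ1), C32H11.4 (1283 and 9.25 FPKM), F55G11.2 (2170.4 and 19.4 FPKM), M03A1.8 (191.7 and 3.04 FPKM), F56D5.3 (381 and 6.31 FPKM) and C32H11.3 (55.8 and 1.07 FPKM). Each of these 6 is more than 50-fold higher in stressed VZ1 and is listed in N2 too. The unstressed levels are low, and with 1 FPKM added to both values the log2 fold of C32H11.3 is 4.78 and that of M03A1.8 is 5.58, which puts both below 50-fold. C02D5.4 had the highest unstressed level of the 30 (849 FPKM in stressed VZ1 and 85.1 FPKM in unstressed VZ1) and F15B9.6 stood lowest in stressed VZ1 (22.3 and 1.55 FPKM).

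The N2 stress table lists 151 entries (1.05% of 14397 genes tested). Of the 87 genes with a fold in VZ1, 73 are also listed for stress in N2, 66 higher and 7 lower in both strains, and 14 are not. A gene missing from the N2 table has no level there, so that it is not shown to respond differently in N2. The 14 are 10 genes that rose, namely gcs-1, gclm-1, sqst-1, allo-1, ugt-18, fmo-2, catp-3, T12D8.5 (119.7 FPKM in stressed VZ1 and 16.9 FPKM in unstressed VZ1), R05H10.1 (46.3 and 7.22 FPKM) and F20G2.1 (33.6 and 3.13 FPKM), and 4 that fell, namely lips-6, K08E7.5, Y22D7AL.11 and the locus of F22E5.1 and F22E5.17.

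The 14 lay closer to the limit of what was listed than the 73. Their median absolute log2 fold was 2.86, against 3.85 for the 73, and 9 of the 14 were below 3, against 9 of the 73. The smallest q in the authors' deposited table, 0.0111, belongs to 6 of the 14, against 54 of the 73. Among these 6 are gclm-1, sqst-1, allo-1 and lips-6, while the q of gcs-1 in the authors' deposited table is 0.0324 and that of fmo-2 is 0.0476, the largest it holds. The median level in the higher library was 47.8 FPKM for the 14, against 269 FPKM for the 73.

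**Figure D3:**
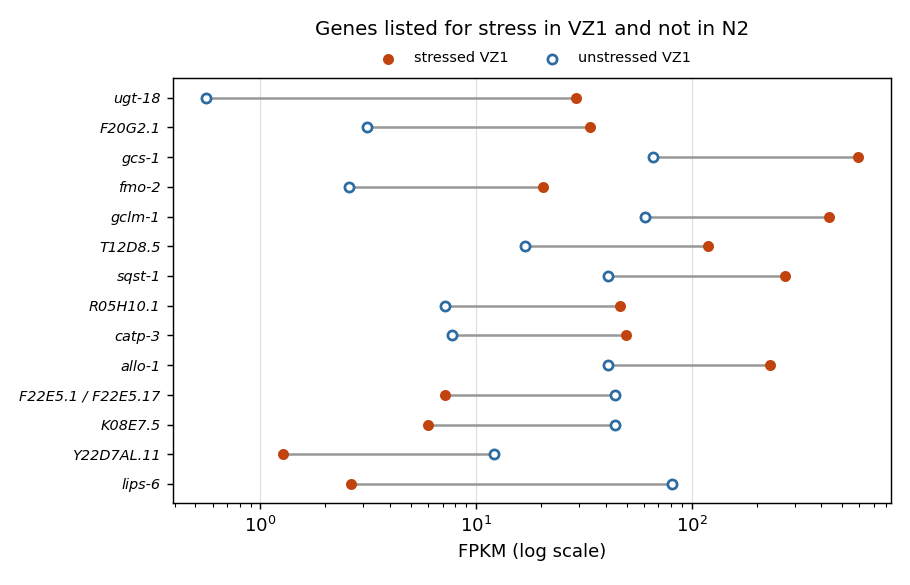
FPKM (log scale) in stressed VZ1 (filled orange) and unstressed VZ1 (open blue) for the 14 genes listed for stress in VZ1 and not in N2, 1 library a group. gcs-1 and gclm-1 have the highest levels in stressed VZ1, at 590.4 and 433 FPKM, and the filled points of the lowest 4 genes lie left of the open ones.

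Of the 73 shared genes 45 stand at a locus with identical ends in both stress tables. Over these 45 the difference in log2 fold, VZ1 minus N2, had a median of 0.18 and was within 1 of 0 for 43. The exceptions were hsp-16.41 (difference 1.08) and C06E4.3 (difference −1.56). C06E4.3 stood at 39.5 FPKM in stressed VZ1 and 42.4 FPKM in stressed N2, against 3.27 FPKM in unstressed VZ1 and 1.19 FPKM in unstressed N2, so that its unstressed levels are further apart as a ratio, though not in FPKM, than its stressed ones. Differences close to 1 were those of ftn-1 (0.98), cup-16 (0.95) and C50F7.5 (0.94). C50F7.5 had 203.8 FPKM in stressed VZ1 and 18.9 FPKM in unstressed VZ1, and 52.7 FPKM in stressed N2 and 9.36 FPKM in unstressed N2. Only genes called in both strains enter here, so the closeness of the folds is partly set by that choice. Levels of VZ1 and N2 come here from stress tables normalised separately, and no difference in fold between the strains was tested. The authors did test levels between the strains, in a table without stress and a table under stress. Of the entries listed for stress in VZ1 only lips-6, which is not among these 45, is in a strain table. The others were thus not called between the strains in either condition, which does not show that their levels were equal.

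Some listed genes are neighbours, and no share of neighbours over all genes was computed to set beside these counts. Of the 95 entries at loci up to 50 kb wide, 28 lie within 20 kb of another, in 12 groups. As 88 of the 106 listed entries rose, many groups would move in 1 direction whichever entries they held. Members moved in 1 direction in 10 of the groups. On chromosome II these include 3 groups of glutathione S-transferase genes, gst-6 with gst-7, gst-20 with gst-12 and gst-16, and gst-39 with gst-35. In each of these groups log2 folds differed, for example 3.27 for gst-20, 6.40 for gst-12 and 6.03 for gst-16. On chromosome IV, C32H11.3, C32H11.4 and dod-24 rose by log2 5.70, 7.12 and 4.77, and F55G11.8, F55G11.2 and dod-17, which begin 21530 bp beyond dod-24, by 3.84, 6.81 and 5.26. Another group on chromosome IV holds C17H12.6 (81.8 FPKM in stressed VZ1 and 2.99 FPKM in unstressed VZ1), H20E11.3 (109 and 11.5 FPKM) and H20E11.2 (62.2 and 2.27 FPKM).

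The groups of both directions are aip-1 with mtl-2, 4930 bp apart, and lips-6 with sqst-1, 18300 bp apart. The remaining groups are hsp-16.2 with hsp-16.41, fmo-2 with allo-1, K09D9.1 with C49G7.10, and irg-5 with F20G2.1. Neighbours of 1 family share sequence, so that their values are not independent of each other.

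**Figure D4:**
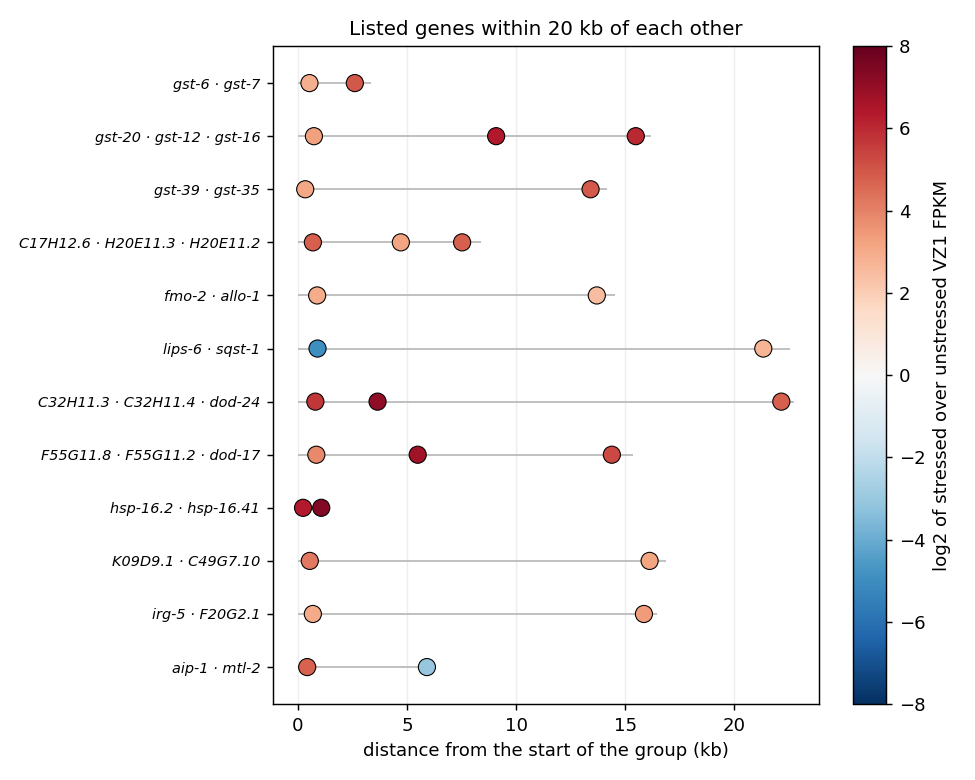
Listed genes within 20 kb of each other, with 1 line a group, the distance from the start of the group in kb on the horizontal axis, and the log2 of stressed over unstressed VZ1 FPKM as the colour (red higher, blue lower). All points are red apart from lips-6 and mtl-2, which stood in groups with a gene that rose.

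Chromosome V held 33 of the 87 genes (37.9%) and chromosome IV 22 (25.3%), where RefSeq places 24.996% and 16.419% of 19983 protein-coding genes. Chromosome X held 4 genes, a smaller share than the 13.7% of protein-coding genes there. The summed exon length of the 72 rising genes that have a locus to themselves had a median of 1044 bases, near the 1165 bases of all protein-coding genes in the WBcel235 annotation.

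At 0 in 1 library were 19 entries, 12 of them in unstressed VZ1 and 7 in stressed VZ1. Of the 8 at loci up to 50 kb wide, the miRNA gene mir-239.2 (chromosome X, 11789439 to 11791468) stood at 12.7 FPKM and the small nucleolar RNA gene Y37E3.21 at 11.3 FPKM in stressed VZ1, both listed at 0 in unstressed VZ1. The loci of mir-239.2 and Y37E3.21 span 2029 and 1763 bp, and whether the reads come from the small RNAs named there was not checked. F14F9.2 (1.04 FPKM), T15D6.8 (0.89 FPKM) and an unnamed locus on chromosome IV (0.88 FPKM) were likewise above 0 in stressed VZ1 alone. T05A8.6 (2.12 FPKM), hpo-25 (1.52 FPKM) and F26D2.16 (0.49 FPKM) were above 0 in unstressed VZ1 alone.

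The other 11 entries span loci of 305851 to 851462 bp, far wider than the genes they name, and each is at 0 in 1 library. In stressed VZ1 stood sup-6 (6.35 FPKM), F59D12.10 (4.85 FPKM), C03H12.2 (3.25 FPKM), Y47D3B.24 (1.35 FPKM), C36C9.6 (0.35 FPKM), M04D8.8 (0.24 FPKM) and W08F4.12 (0.24 FPKM). In unstressed VZ1 stood C30F2.6 (8.85 FPKM), C30B5.10 (0.54 FPKM), C05B5.11 (0.45 FPKM) and Y110A2AL.6 (0.27 FPKM). F59D12.10, C03H12.2 and C30F2.6 are given 1 and the same locus on chromosome X and went opposite ways, and so did M04D8.8 and C05B5.11 on chromosome III. A value of 0 may be a failed estimate. Of the 19 entries at 0, 18 are not listed for stress in N2, against 14 of the 87 others, and of the 24 entries at 0 in N2 only Y37E3.21 is listed in VZ1.

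No member was listed of 6 vitellogenin (yolk protein) genes, 233 collagen and cuticle genes or 336 genes of nuclear hormone receptors and other transcription factors. The same held for 54 marker genes of intestine, hypodermis, muscle, germ line and neurons. With 0.735% of all genes tested listed, a small list such as the vitellogenins would most often hold no listed member. Its emptiness thus does not set it apart from other genes, and no list was tested for a shortfall. Any of these lists may still hold genes that changed by less than the smallest fold listed.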

How the data were processed

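The authors deposited FPKM values of 2 libraries in each of 4 tables with the Cuffdiff layout, per the file headers, and the unit is inferred from that layout. TopHat, Bowtie2, Cufflinks and the build ce10 are named in the submitters' processing notes, with no version. A p-value and a q-value of each gene were deposited with them, per the file headers. Only called genes are in the tables. How many genes the authors tested was computed as q times rank over p, a step tested on simulated data. No test was run, since each group has 1 library. The fold is log2 of stressed over unstressed FPKM without pseudocount, with zeros and loci over 50 kb apart. Depth is unknown: only 10 of 212 values are above 0 and under 1 FPKM, which does not allow its recovery. All 112 gene names were matched to RefSeq (WBcel235), and 11 have another current symbol. RefSeq gave names, gene types and chromosome shares only, exon lengths are from the Ensembl annotation of WBcel235, and coordinates are those of the tables. Genes were matched between tables by name. The members and lists were chosen with earlier results of these data known. Named with values are all members of the lists, the 15 largest rises, the 10 largest falls, all entries at 0 or over 50 kb, and all genes not listed in N2, and others were named after their values were seen. No promoter or protein sequence was used here, so the planned search for promoter motifs was not run. Python 3.11.15, pandas 2.3.3, numpy 2.4.6 and matplotlib 3.10.9 were used.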

Additional observations from a re-analysis of the deposited data

How the results depend on the processing

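The 88 higher entries became 56, and the 18 lower ones 9, at the smallest q of the authors' deposited table. The lower entries numbered 11 without those at 0, and 11 with at least 10 FPKM in the higher library. Dropping loci over 50 kb, or entries under 1 FPKM in the higher library, kept both counts within 1.5 times. The median log2 rise of 3.84 became 3.80, 3.61 and 3.16 with 0.1, 1 and 5 FPKM added to both values, and 4.22 at the smallest q. The median fall of −3.28 became −3.24, −3.08 and −3.03 with the same additions, and −3.97 at the smallest q. Adding the same amount to both values cannot change a direction, so the additions say nothing on direction. With 5 FPKM added, 21 of 87 log2 folds moved by over 1. The 32 entries not listed in N2 became 14 without wide loci and entries at 0, and 30 when matched by overlap of loci. With names as the table gives them, the autophagy and ubiquitin list has 1 listed member in place of 2, since sqst-1 stands there as T12G3.1. No replicate could be left out. No paired analysis was possible because each group has 1 library. The depth of the libraries is unknown, so no counting error can be given for any value.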
